A study of Mus musculus with 8 samples.

Results

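Tumour neutrophils were examined among CD45+ immune cells sorted from MC38 tumours, a transplantable mouse colon carcinoma line, grown in wild-type mice. A droplet barcode counted as a neutrophil when the summed counts of S100a8, S100a9, Retnlg, Csf3r and Cxcr2 reached at least 10 unique molecular identifiers (UMIs), when C1qa, C1qb and C1qc together stayed below 20 per 10000 UMIs, and when Cd3d, Cd3e and Cd3g together gave at most 1 UMI. Members were thus selected on measured levels of these genes. The 4 cDNA libraries held 254 such barcodes among 37757. The 2 control libraries gave 11 and 7 of them (replicates 1 and 2), and the 2 LNP-Sirpa libraries gave 129 and 107. LNP-Sirpa is the label of the treated group, in a series whose title speaks of SIRPα degradation aimed at the tumour. What the control mice received, the dose, the day of collection and the age of the mice are not stated in the labels. All 4 libraries carry the same batch label, and the labels do not say that replicates are separate mice, so the spread behind each p-value is that between libraries, which may be technical.

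Neutrophils are short-lived granulocytes made in the bone marrow, where granule proteins are produced in sequence as the cell matures, and they enter blood and inflamed tissue through chemokine receptors such as CXCR2. In tumours they can take on an interferon-responsive state or a state rich in arginase and other products that restrain T cells. SIRPα is an inhibitory receptor of myeloid cells, neutrophils included, and its ligand CD47 on the opposing cell restrains phagocytosis.

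The control arm was small, and its libraries were unlike each other. The neutrophil barcodes summed to 78194 and 13692 UMIs in the control libraries and to 488266 and 370837 UMIs in the LNP-Sirpa libraries, with medians of 3064, 1486, 2589 and 2327 UMIs per barcode. In control replicate 1, 3 barcodes with under 30 marker UMIs per 10000 held 68.1% of the neutrophil UMIs, against 0% in control replicate 2 and 16.8% and 9.89% in the LNP-Sirpa libraries. Results that move when such barcodes are left out are given both ways, the remainder being called marker-rich barcodes (8, 7, 120 and 102 barcodes). Pairs of libraries shared between 830 and 1242 barcode names, but these are running numbers, so a shared name does not show a shared cell.

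Neutrophil barcodes made up a larger share of the sorted cells in both LNP-Sirpa libraries than in either control library. They were 0.146% of control replicate 1 (11 of 7511; exact Clopper-Pearson 95% interval 0.0731 to 0.262%) and 0.0643% of control replicate 2 (7 of 10890; 0.0258 to 0.132%). They were 1.25% of LNP-Sirpa replicate 1 (129 of 10348; 1.04 to 1.48%) and 1.19% of LNP-Sirpa replicate 2 (107 of 9008; 0.974 to 1.43%). The group means were 0.105% ± 0.0581 and 1.22% ± 0.0416 (SD, n = 2), an 11.6-fold ratio, and the groups did not overlap. The exact two-sided permutation p was 0.33, the smallest that 2 libraries against 2 allow, and the intervals cover counting error only. A share is relative to all sorted barcodes, so it also moves with the numbers of other cells.

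The C1q limit bore unequally on the libraries. T barcodes (at least 3 Cd3 UMIs), which should lack complement C1q, had a median C1q level of 42.8 and 66.6 per 10000 UMIs in the control and 25.3 and 13.9 in the LNP-Sirpa libraries when no C1q limit was set for them. Among barcodes that met the other limits, those with C1q at 20 or more numbered 25, 35, 165 and 67, and 15, 18, 126 and 51 of these carried at least 100 marker UMIs per 10000. With a limit of 80 for C1q and at least 100 marker UMIs per 10000, chosen after the data were seen, the counts were 17, 18, 206 and 130 barcodes. The shares were then 0.226%, 0.165%, 1.99% and 1.44%, and the ratio of the means was 8.77. At the marker limit itself, 4, 1, 5 and 3 barcodes had 10 or 11 marker UMIs and 2, 0, 7 and 4 had 8 or 9.

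**Figure D1:**
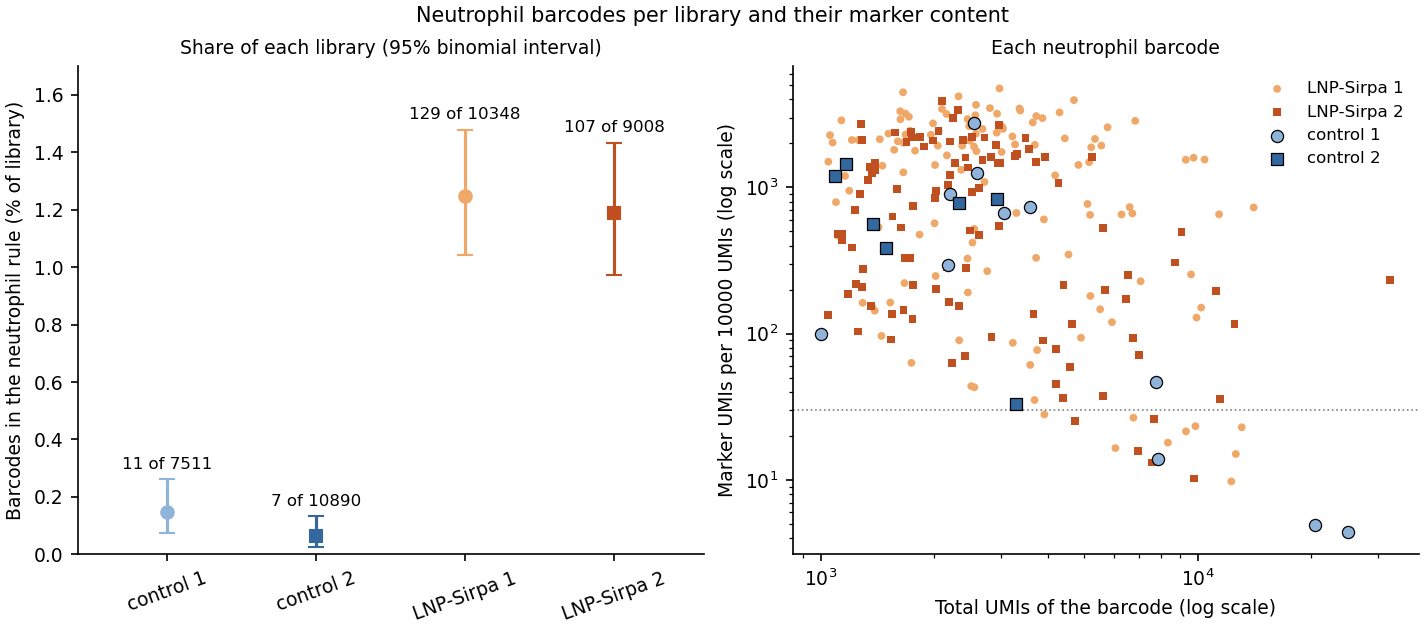
Left, neutrophil barcodes as a percentage of each library, with exact 95% binomial intervals; right, marker UMIs per 10000 UMIs against total UMIs for each of the 254 barcodes on log axes, with a dotted line at 30. The shares of 1.25% and 1.19% in the LNP-Sirpa libraries lie above 0.146% and 0.0643% in the controls, and the deepest control barcodes lie below the dotted line.

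The 5 genes of the rule describe the barcodes and were not tested. Levels (CPM) are UMIs per 1000000 of the summed UMIs of a class in a library. S100a8, which with S100a9 forms the cytosolic calcium-binding protein calprotectin, had 11472 and 30602 CPM in control replicates 1 and 2, and 55056 and 28840.2 CPM in LNP-Sirpa replicates 1 and 2. Every neutrophil barcode had a UMI of it. Cxcr2, the receptor for the chemokines that attract neutrophils, had 63.9, 146, 381 and 216 CPM, and was seen in 4 of 11, 2 of 7, 75 of 129 and 43 of 107 barcodes. Control replicate 1 was the lowest library for all 5 genes.

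The neutrophil barcodes held neutrophil RNA, and many also held monocyte RNA, as given below. Neutrophil markers that the rule did not use were higher, as a sum, in these barcodes than in other cells of the same libraries. The 19 such markers summed to 7456, 22129.7, 16317 and 14478 CPM, against 531 to 1396 CPM in macrophage barcodes (C1q at or above the limit, so that barcodes left out for C1q fall here), 624 to 1835 CPM in monocyte barcodes (at least 10 UMIs of Ly6c2, Ccr2 and Plac8) and 299 to 792 CPM in T barcodes. G0s2, an inhibitor of lipid breakdown abundant in mature neutrophils, had 1292, 4674, 2732 and 2567 CPM in neutrophils and at most 39.9 CPM in the other classes. Stfa2l1, a cysteine protease inhibitor of the stefin family whose close copies can share reads, had 601, 292, 653 and 1335 CPM against at most 8.66 CPM. After each barcode was thinned to 1000 UMIs, G0s2 was seen in 54.5%, 71.4%, 63.6% and 63.6% of neutrophil barcodes and in at most 0.777% of T barcodes.

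**Figure D2:**
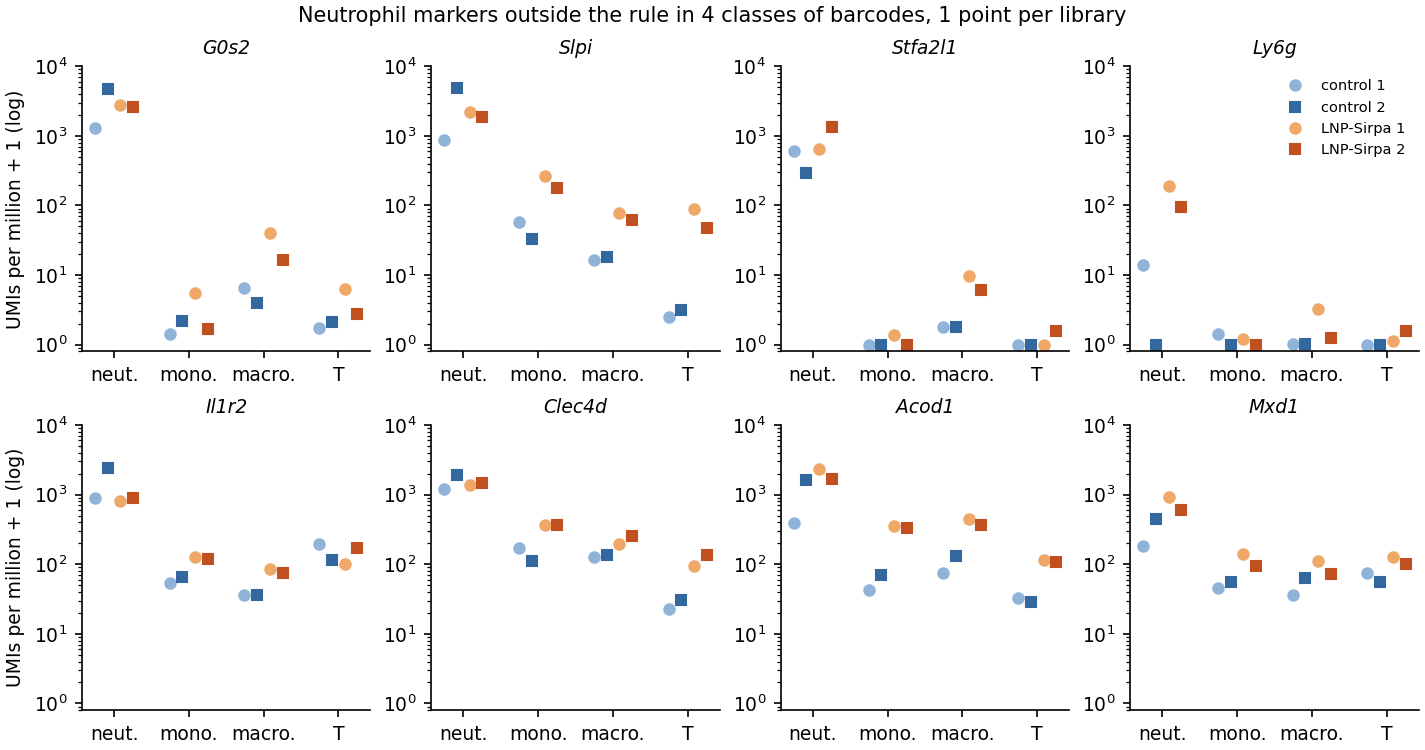
CPM plus 1, on a log axis, of 8 neutrophil markers outside the rule in neutrophil, monocyte, macrophage and T barcodes, 1 point per library. G0s2 and Stfa2l1 are near the floor outside neutrophils, whereas Acod1, Clec4d and Mxd1 are also seen in the other classes.

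None of the 19 markers outside the rule passed the test between groups, the smallest adjusted p being 0.116 (Mmp8). Mxd1, a transcription factor that opposes Myc during granulocyte maturation, had 179, 438, 922 and 601 CPM (1.78 ± 0.83, adjusted p = 0.436). Acod1, which makes itaconate, had 384, 1607, 2329 and 1650.3 CPM (1.49 ± 0.91, adjusted p = 0.587), and Trem1, an amplifier of inflammatory signals, had 319.7, 292, 696 and 558 CPM (1.22 ± 0.76, adjusted p = 0.590). In these 3 genes both LNP-Sirpa libraries were above both controls, by less than the fit could call. With 2 libraries per group, unchanged genes can also show this order, and its share over all genes tested is not given here. The order of libraries is therefore only a description, here and for the genes below. For Clec4d and Clec4e, lectin receptors for microbial glycolipids, control replicate 2 was the highest library, at 1899 and 2337 CPM. The secretory inhibitor Slpi had 869.6, 4820.3, 2214 and 1836 CPM and its groups overlapped. Outside the rule, the most abundant transcripts were the ferritin heavy chain Fth1 (22738, 29652, 19909 and 23655 CPM), the chemokine Cxcl2 and the cytoskeletal gene Actb (17073, 9495, 11940 and 10249.8 CPM), and the groups of Fth1 and Actb overlapped.

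Transcripts of monocytes and macrophages were present in these barcodes. The 10 macrophage markers summed to 1854, 3287, 1557 and 1693 CPM in neutrophil barcodes and to between 6405 and 12698 CPM in macrophage barcodes. The 10 monocyte markers summed to 5013, 1461, 6075 and 5099 CPM. Control replicate 2, with 5 of the 10 at 0, lay below the 3849 to 6573 CPM of monocyte barcodes, and the other libraries lay within that range. Over 2 UMIs of Ly6c2, Ccr2, Ms4a4c and F13a1 together were present in 5 of 11, 2 of 7, 97 of 129 and 56 of 107 neutrophil barcodes. Neutrophils are therefore not separated here from barcodes that hold monocyte RNA, and values without those barcodes are given for the genes that could still be fitted and are discussed with another set of barcodes. For other results the part of that RNA was not tested. The 8 mast cell and basophil markers summed to 460.4, 876, 1282 and 889.9 CPM, most of it from Hdc (435, 876, 1163 and 889.9 CPM), which is also among the neutrophil markers, and Mcpt8 and Ms4a2 were at 0. The 9 fibroblast markers summed to 89.5, 219, 84.0 and 472 CPM, with LNP-Sirpa replicate 2 the highest. T and NK markers reached at most 348 CPM. The B-cell genes Cd79a and Cd79b, the dendritic genes Xcr1 and Clec9a and all 6 erythroid genes had no UMI in any neutrophil barcode. Among 7 measured eosinophil genes, Epx, Prg2, Il5ra, Ear1 and Siglecf had none. Siglecf, looked up after the first results were seen, also marks a population of tumour neutrophils, and 0 of 129 and 0 of 107 LNP-Sirpa barcodes allow a share with a UMI of up to 2.33% and 2.80%.

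Sirpa, the target of the treatment, was measured in every library at a similar level. Control neutrophils had 422 and 438 CPM, and LNP-Sirpa neutrophils had 311 and 402 CPM. Both control libraries were above both LNP-Sirpa libraries, but by less than the error of the fit (log2 difference -0.06 ± 0.65 SE, edgeR adjusted p = 0.989). Sirpa passed the threshold in none of 17 alternative settings. In macrophage barcodes it had 553, 543.5, 476 and 353 CPM, and in T barcodes 83.3 to 116 CPM. After thinning, it was seen in 18.2%, 28.6%, 23.3% and 29.0% of neutrophil barcodes against 12.4%, 8.11%, 8.54% and 5.74% of T barcodes. These are mRNA counts and say nothing of SIRPα protein.

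Cd47, which encodes the SIRPα ligand, had 230.2, 292, 360.5 and 269.7 CPM, and the groups overlapped (0.54 ± 0.63, adjusted p = 0.834). Of 15 measured genes of the SIRPα-CD47 axis and inhibitory receptors, 11 could be tested and none passed the threshold, with a median log2 difference of 0.11 against 0.08 over all genes tested. Lilr4b, an immunoglobulin-like receptor, had 1061, 876, 1782 and 1823 CPM (1.10 ± 0.87, adjusted p = 0.699). Cd300lf, a lipid-binding receptor with inhibitory motifs, had 205, 1242, 547 and 483 CPM and its groups overlapped. Paired immunoglobulin-like receptors have near-identical copies, so their counts are uncertain.

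Across the 3224 genes with enough counts, 8 differed between LNP-Sirpa and control neutrophils at an adjusted p below 0.05 (0.248% of genes tested, edgeR quasi-likelihood test on counts summed per library, Benjamini-Hochberg adjustment). Higher were the interferon-induced genes Ifit1, Xaf1 and Zbp1, the chemokines Ccl5 and Cxcl10, the activin subunit Inhba and the granule gene Ngp; Mertk was lower. The genes that rose had few or no control UMIs and entered the test only through their LNP-Sirpa counts. The count filter thus favoured rises among such genes, and their levels are the safer description. An unadjusted p below 0.05 was reached by 344 genes. The small control sums limit what could be seen: in counts simulated from the same sums, the test recovered 1.92% of genes changed by 1 on the log2 scale, 35.2% at 2 and 83.9% at 3. The simulation gave every gene the same fixed dispersion, not the spread of these libraries. Its rates may therefore overstate what these data could show.

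The calls rest on few control UMIs and on both LNP-Sirpa libraries. Without LNP-Sirpa replicate 1, and likewise without replicate 2, no gene passed, with 15 and 43 genes at an unadjusted p below 0.05, and the 8 genes had adjusted p of at least 0.759. Without control replicate 1, 91 genes passed and 6 of the 8 were among them. Without control replicate 2, 291 passed with all 8 among them. Sums with each replicate pair as a block gave no call, with 156 genes at an unadjusted p below 0.05. In marker-rich barcodes 25 of 2767 genes passed (0.904%), all 8 among them, and with the wider C1q limit 69 of 3293 passed (2.1%), 6 of the 8 among them. Other settings shared few or none of the 8: 1 of the 3 genes called by DESeq2, 0 of 16 with Csf3r and Cxcr2 or Retnlg required, 0 of 10 with C1q below 5 per 10000, where control replicate 1 had no barcode, and 0 of 11 with each barcode thinned to 1000 UMIs.

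Ifit1 encodes an RNA-binding protein that interferon induces. It had 1 UMI in control replicate 1 and none in control replicate 2, against 250 and 81 UMIs in the LNP-Sirpa libraries (12.8, 0, 512 and 218 CPM), in 77 of 129 and 28 of 107 barcodes. The ratio of pooled levels was 35.4, with a counting interval from 6.31 to 1402, and the adjusted p was 0.0313. Genes of the Ifit family resemble each other, and their counts may be shared. Xaf1, an interferon-induced regulator of cell death, had 12.8, 0, 356 and 216 CPM from 1, 0, 174 and 80 UMIs (ratio 27.2, 4.83 to 1077; adjusted p = 0.0456). Zbp1, a sensor of Z-form nucleic acid, had 38.4, 0, 588 and 332 CPM from 3, 0, 287 and 123 UMIs (ratio 14.6, 4.97 to 71.2; adjusted p = 0.0456). For all 3 genes both LNP-Sirpa libraries were above both controls, and LNP-Sirpa replicate 1 was the highest library.

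**Figure D3:**
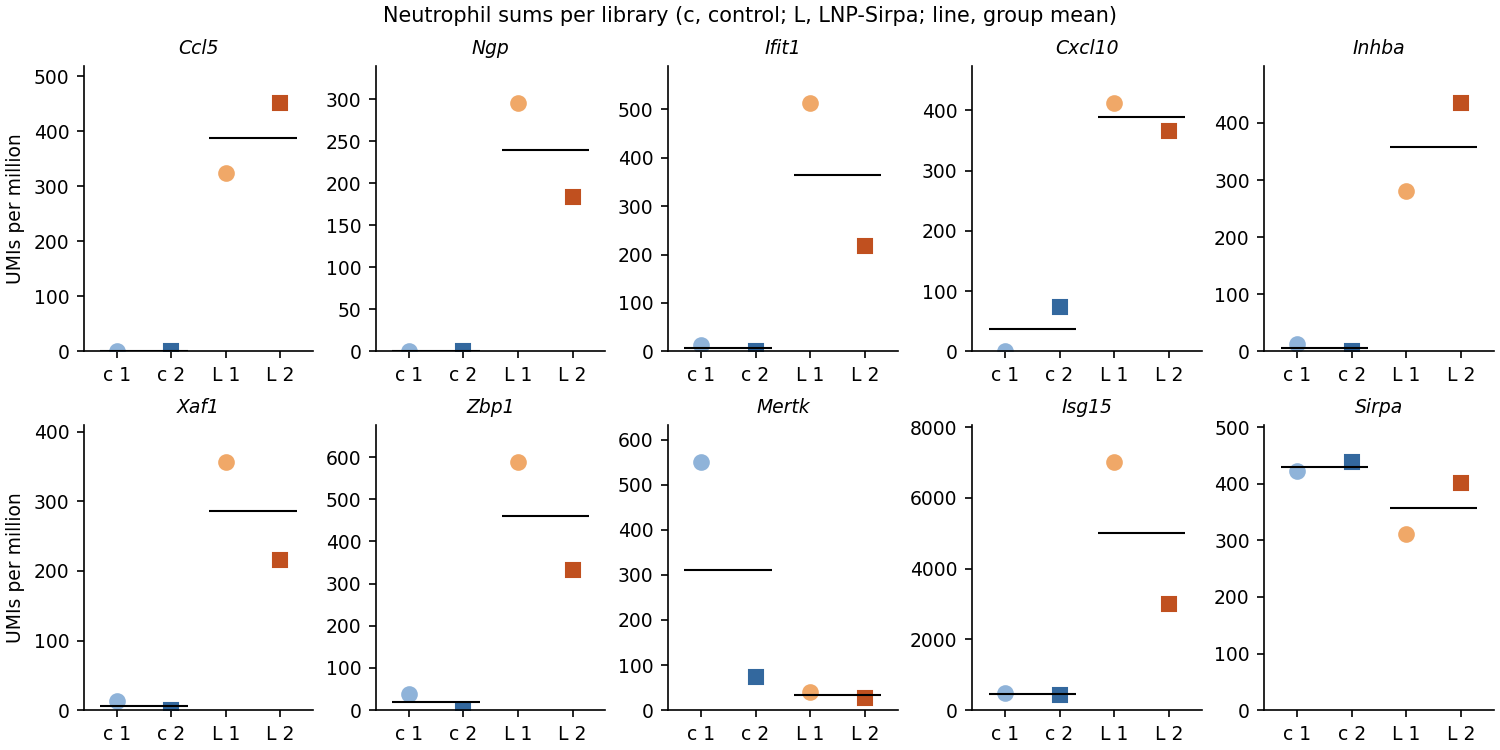
CPM in the neutrophil sum of each library (c, control; L, LNP-Sirpa; replicate numbers as labelled) for the 8 genes past the threshold, for Isg15 and for Sirpa, with a line at each group mean and axes that start at 0. The 7 genes that rose have at most 73.0 CPM in a control library, Mertk is high in control replicate 1, and the Sirpa groups lie close together.

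Interferon-induced genes were looked up for the interferon-stimulated response element, the promoter motif bound by the STAT-IRF9 complex. The letters GAAANNGAAA were searched on both strands of the RefSeq promoter table, from 250 bases before to 50 after each gene's start, in build GRCm38.p6; the counts were made on GRCm39. Of 32851 promoters, 3.44% held the motif, and of 27025 genes 3.99% held it in any promoter. Counted per gene in the same way, 17 of the 30 genes of the type I interferon list that are in the table held it (56.7%). Among genes tested in neutrophils it was 5.70%. These promoters are shown because their genes carry the pattern described here, and capitals mark the matches. Ifit1 (chr19:34640639-34640938, plus strand) has 2 matches on the opposite strand, Isg15 (chr4:156200769-156201068, minus strand) has 3 that overlap, and Cxcl10 (chr5:92348840-92349139, minus strand) has 1 further upstream.
Ifit1: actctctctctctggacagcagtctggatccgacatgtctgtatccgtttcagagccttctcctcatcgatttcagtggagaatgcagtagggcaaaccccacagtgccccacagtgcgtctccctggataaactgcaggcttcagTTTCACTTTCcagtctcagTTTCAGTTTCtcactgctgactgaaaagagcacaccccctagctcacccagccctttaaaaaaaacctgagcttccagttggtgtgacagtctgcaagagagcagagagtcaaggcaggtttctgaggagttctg
Isg15: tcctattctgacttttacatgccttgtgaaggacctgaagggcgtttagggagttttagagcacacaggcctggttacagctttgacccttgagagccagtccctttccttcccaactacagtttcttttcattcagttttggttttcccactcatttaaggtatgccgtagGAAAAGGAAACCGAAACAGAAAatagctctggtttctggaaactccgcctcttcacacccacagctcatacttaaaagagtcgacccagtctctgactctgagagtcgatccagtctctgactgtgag
Cxcl10: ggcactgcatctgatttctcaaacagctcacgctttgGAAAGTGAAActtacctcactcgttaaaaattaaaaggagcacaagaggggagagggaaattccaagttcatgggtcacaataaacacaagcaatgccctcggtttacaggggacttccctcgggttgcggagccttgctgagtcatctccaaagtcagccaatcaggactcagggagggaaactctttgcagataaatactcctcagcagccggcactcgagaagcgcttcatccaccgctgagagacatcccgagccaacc
Zbp1 and Ccl5 were not matched. The windows of Xaf1, Inhba, Ngp and Mertk did not hold these letters. A match describes the sequence, not a bound site.

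The type I interferon genes stood higher in LNP-Sirpa neutrophils as a list. Of 39 listed genes 36 were measured, and these summed to 2123 and 3871 CPM in the control against 20675 and 9705 CPM with LNP-Sirpa. The groups did not overlap, and LNP-Sirpa replicate 1 had the most. Of the 31 that could be tested, 3 rose (Ifit1, Xaf1 and Zbp1) and none fell, against 7 rises over all 3224 genes tested. All 31 differences were positive, against 1744 of 3224 over all genes tested. Their median was 2.97, or 2.45 with genes that had no control UMI set at their lower bound, against 0.08 over all genes tested. A gene absent from controls could enter the test only through its LNP-Sirpa counts, so the summed level, which needs no filter, is the safer description. In marker-rich barcodes 6 of 29 rose, and with the wider C1q limit 10 of 29, with none lower in either. Over all genes tested, 21 of 2767 and 45 of 3293 rose in these sets.

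Isg15, a ubiquitin-like protein made in response to interferon and chosen here after its values were seen, had 486 and 438 CPM in control neutrophils against 7006 and 3009 CPM after LNP-Sirpa. Both LNP-Sirpa libraries were above both controls, and the difference of 3.66 ± 1.00 had an adjusted p of 0.1005. It passed in 9 of 18 alternatives, with adjusted p from 1.76e-07 to 1.00, among them marker-rich barcodes (2.90, adjusted p = 0.00150) and the wider C1q limit (2.24, adjusted p = 0.00598). In control replicate 1, 33 of its 38 UMIs lay in 1 barcode. Without barcodes that held over 2 monocyte marker UMIs, the difference was 0.99 (adjusted p = 0.376), from 6, 5, 32 and 51 barcodes. Of the 8 called genes, Ccl5, Cxcl10 and Zbp1 could still be tested in those barcodes. Their fitted differences were 7.42, 7.23 and 7.05, with adjusted p of 0.0555, 0.0684 and 0.0805, and fits on so few control UMIs depend on the prior count. None of the 3 was among the 15 genes that passed there, while the interferon-induced Gbp2 was (7.82, adjusted p = 0.0334). Ly6c2, which is a monocyte marker of that limit, had 345, 73.0, 2454 and 1599 CPM (3.18 ± 0.98, adjusted p = 0.166) and belongs to a family of similar genes. It passed in marker-rich barcodes (2.94, adjusted p = 0.00730) and with the wider C1q limit (5.14, adjusted p = 4.97e-05). The monocyte limit thus leaves out barcodes partly by a gene that was itself higher in both LNP-Sirpa libraries.

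Further genes of this kind were chosen after their values were seen. Ifit2 had no control UMI and 155 and 44 UMIs in the LNP-Sirpa libraries, at least 7.09-fold higher against a floor of 3 counts over the control group (adjusted p = 0.0569). It passed in marker-rich barcodes (adjusted p = 0.0259) and with the wider C1q limit (4.46, adjusted p = 0.0321). Irf7, the transcription factor that amplifies interferon production, had 25.6, 0, 342 and 199.5 CPM (adjusted p = 0.0797). It passed with the wider C1q limit (3.33, adjusted p = 0.0332) and was not among the genes called in marker-rich barcodes. Ifitm3, a membrane protein that blocks virus entry, had 1125, 949, 5952 and 3783 CPM (2.46 ± 0.93, adjusted p = 0.297), and passed in marker-rich barcodes (2.14, adjusted p = 0.0402) and with the wider C1q limit (2.19, adjusted p = 0.00227). Without barcodes with over 2 monocyte UMIs, the Ifitm3 difference was 0.61 (adjusted p = 0.683). Each of these genes was higher in both LNP-Sirpa libraries than in either control, and Ifitm genes have close copies.

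Counted barcode by barcode, the type I interferon list took a median of 26.1 and 25.7 per 10000 UMIs in control neutrophils and 228 and 81.7 in LNP-Sirpa neutrophils. The lower and upper quartiles were 107 and 369 in LNP-Sirpa replicate 1 and 35.2 and 187 in LNP-Sirpa replicate 2. The highest control barcode, at 262, lay above the median of both LNP-Sirpa libraries, so single barcodes overlapped between groups.

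Free RNA was gauged from T barcodes thinned to the same 1000 UMIs. Isg15 was then seen in 18.2%, 28.6%, 87.6% and 67.3% of neutrophil barcodes and in 16.3%, 11.5%, 49.3% and 24.2% of T barcodes, which may also make it. Without thinning the neutrophil shares were 36.4%, 71.4%, 93.0% and 82.2%. In both LNP-Sirpa libraries the neutrophil share lay above the T share beyond the binomial intervals, and the same held for Ifit1 (33.3% and 15.9% against 12.4% and 6.09%), Zbp1 (45.7% and 29.0% against 25.8% and 13.7%) and Xaf1 (36.4% and 20.6% against 13.5% and 5.97%). No barcode had under 1000 UMIs, so none was left out. T barcodes of the LNP-Sirpa libraries were deeper, with medians of 5863 and 4690.5 UMIs against 2589 and 2327 in neutrophil barcodes. An equal amount of free RNA per droplet would weigh less in the deeper barcodes after thinning. How much of the higher neutrophil shares is free RNA was therefore not tested. The control shares, from 11 and 7 barcodes, could not be told from background at this depth.

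**Figure D4:**
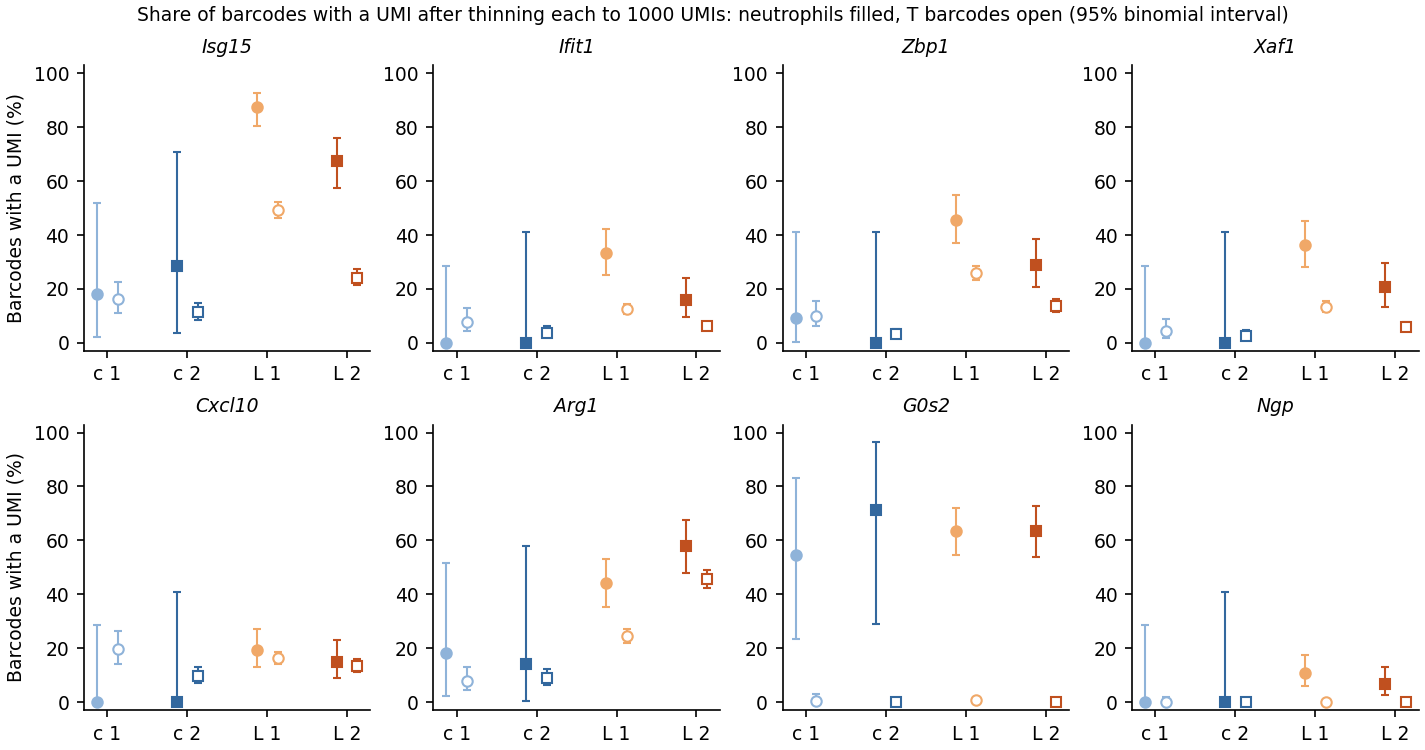
Percentage of barcodes with a UMI after thinning each barcode to 1000 UMIs, for neutrophil barcodes (filled) and T barcodes of the same library (open), with exact 95% binomial intervals. Isg15, Ifit1, Zbp1 and Xaf1 lie above T barcodes in both LNP-Sirpa libraries, Cxcl10 shares of T barcodes (16.2% and 13.5%) lie within the intervals of neutrophils, and G0s2 and Ngp are near 0 in T barcodes.

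Isg15 was also higher in other cells of the LNP-Sirpa tumours. Isg15 had 119, 140.5, 1609 and 486 CPM in macrophage barcodes and 208, 251, 1768 and 784 CPM in monocyte barcodes (edgeR adjusted p = 0.0855 and 0.0451). Its level in neutrophils was above that in macrophages in every library. The interaction of treatment and class tests whether the neutrophil difference departs from the macrophage difference, and 0 of 3224 genes passed (0%), with 239 at an unadjusted p below 0.05. For Isg15 the 2 differences were apart by 0.79 on the log2 scale (adjusted p = 0.929) and for Ifit1 by 2.87 (adjusted p = 0.637). In simulated counts the interaction test recovered 0% of genes at 1, 16.7% at 2 and 51.8% at 3 on the log2 scale. These counts had the same fixed dispersion, so the rates may be too high. Nothing in the interferon genes is therefore shown to be particular to neutrophils. The interaction count was 133 without control replicate 1, 19 without control replicate 2 and 23 in marker-rich barcodes.

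The interferon gamma list was also higher in both LNP-Sirpa libraries. Its 23 measured genes summed to 844, 1461, 4297 and 3255 CPM, and of 14 tested 1 rose (Cxcl10) and all 14 differences were positive, with a median of 2.33, or 1.76 with bounds. Gbp2, a GTPase of cell-autonomous defence chosen after its values were seen, had 154, 73.0, 764 and 464 CPM (2.38 ± 0.80, adjusted p = 0.219) and passed in marker-rich barcodes (5.01, adjusted p = 0.00160), with the wider C1q limit (5.87, adjusted p = 0.00165) and without barcodes with over 2 monocyte UMIs (7.82, adjusted p = 0.0334). Of 16 measured genes of MHC class I presentation, 13 were tested and none passed, although all 13 differences were positive, with a median of 1.24. Over all genes tested, 7 of 3224 rose and 1744 differences were positive. No control UMI was found for 3 of the 14 interferon gamma genes and 1 of the 13 class I genes tested. Such genes could enter the test only through their LNP-Sirpa counts, so the count of positive differences is partly set by the filter. B2m, the light chain of class I, had 1317, 1315, 2718 and 2554 CPM (1.25 ± 0.88, adjusted p = 0.648). Cd74, the class II invariant chain and an abundant macrophage transcript, had 2008, 1315, 2775 and 3473 CPM (1.09 ± 0.88, adjusted p = 0.707), against 4641 to 10811 CPM in macrophages. It passed with the wider C1q limit (1.74, adjusted p = 0.0304) and had 1.52 (adjusted p = 0.107) without barcodes with over 2 monocyte UMIs.

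Of the chemokines, Ccl5 and Cxcl10 rose. Ccl5, which attracts T cells, had no UMI in either control and 158 and 167 UMIs in the LNP-Sirpa libraries (324 and 450.3 CPM), at least 11.6-fold higher against the floor (adjusted p = 0.0149). In LNP-Sirpa libraries it was in 52 of 129 and 42 of 107 barcodes. T barcodes make Ccl5 themselves and held 991 to 5141 CPM, and macrophage barcodes held 95.8, 213, 656 and 429 CPM. After thinning, Ccl5 was in 20.9% and 23.4% of LNP-Sirpa neutrophils and in 26.6% and 19.9% of macrophages. No class here lacks the gene, so how much of it is free RNA was not tested. With the wider C1q limit the difference was 4.14 (adjusted p = 0.00397).

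Cxcl10, a ligand of CXCR3 induced by interferons, had 0 and 73.0 CPM from 0 and 1 UMI in the controls and 412 and 367 CPM after LNP-Sirpa (ratio 36.0, counting interval 6.43 to 1428; adjusted p = 0.0313). Without control replicate 1 the difference was 3.19 with an adjusted p of 0.0771. Its thinned share was 19.4% and 14.95% in LNP-Sirpa neutrophils and 16.2% and 13.5% in T barcodes, so at this depth the share did not exceed the background.

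Of 19 measured chemokines 16 were tested, and Ccl5 and Cxcl10 alone rose, with a median of 0.53. Among all genes tested 7 of 3224 rose, with a median of 0.08. Both chemokines had few or no control UMIs and entered the test only through their LNP-Sirpa counts. The neutrophil chemoattractant Cxcl2 was among the most abundant transcripts of these cells at 7967, 30529, 14967 and 18383 CPM, and the groups overlapped (0.20 ± 0.87, adjusted p = 0.977). Cxcl2 was far lower in macrophages (2809 to 4897 CPM). Ccl4, an inflammatory chemokine, had 639, 2410.2, 3209 and 3497 CPM (1.58 ± 0.91, adjusted p = 0.565), with control replicate 1 the lowest. Of 15 receptors for chemokines and other attractants, 11 were tested and none passed. Fpr2, a receptor for formylated peptides, had 192, 365, 592 and 418 CPM (1.27 ± 0.73, adjusted p = 0.559), and Ccrl2, which presents chemerin, had 678, 1972, 600 and 723 CPM.

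Among granule genes, Ngp rose in the full set of barcodes. It encodes a protein of secondary granules made by maturing neutrophils in the marrow. It had no UMI in the controls and 144 and 68 UMIs in the LNP-Sirpa libraries (295 and 183 CPM), in 26 of 129 and 10 of 107 barcodes, at least 7.56-fold higher (adjusted p = 0.0313). With 11 and 7 control barcodes, a count of 0 allows a share with a UMI of up to 27.3% and 42.9%, and the shares in the LNP-Sirpa libraries were 20.2% and 9.35%, so a difference in the share of barcodes was not detectable at this depth. Ngp was at most 3.11 CPM in other classes and was seen in none of the thinned T barcodes.

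Ngp and its companions of secondary granules, Camp (cathelicidin) and Ltf (lactoferrin), both added after their values were seen, were concentrated in few cells. At least 1 of the 3 was present in 0, 0, 32 and 11 barcodes, with up to 38 and 66 of the 157 and 114 UMIs in 1 barcode of each LNP-Sirpa library. Ly6g, the surface antigen used to sort mouse neutrophils, was in 1, 0, 41 and 24 barcodes (12.8, 0, 191 and 94.4 CPM; adjusted p = 0.174), and 17 and 8 barcodes of the LNP-Sirpa libraries had it together with a granule gene. Mmp8, neutrophil collagenase, had 63.9, 0, 356 and 318 CPM (2.81 ± 0.80, adjusted p = 0.116), and Mmp9, the gelatinase of tertiary granules, had 115, 365, 186 and 218 CPM with overlapping groups. Of 12 tested genes of secondary and tertiary granules, Ngp alone rose among all barcodes, with a list median of 0.75. That compares with 7 of 3224 over all genes tested. In marker-rich barcodes 2 of 12 rose, and with the wider C1q limit 4 of 12. Over all genes tested in these sets, 21 of 2767 and 45 of 3293 rose. Of 9 measured genes of primary granules, which are filled at the promyelocyte stage, Ctsc alone could be tested (972, 219, 606 and 583 CPM; -0.01 ± 0.79, adjusted p = 0.996). Lyz2, lysozyme, had 14349 and 2410.2 CPM in the controls against 2832 and 2888 CPM, with control replicate 1 far above the rest.

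Inhba, which encodes a subunit of activin A, rose. It had 12.8, 0, 281 and 434 CPM from 1, 0, 137 and 161 UMIs (ratio 31.9, counting interval 5.68 to 1263; adjusted p = 0.0313), in 24 of 129 and 39 of 107 LNP-Sirpa barcodes. Monocyte barcodes had 13.6, 20.7, 330.2 and 282.5 CPM and T barcodes 12.0, 3.29, 94.5 and 92.2 CPM, and Inhba rose in both classes (adjusted p = 8.81e-04 and 0.0223) and in macrophages (adjusted p = 0.0356). The thinned share was 8.53% and 20.6% in LNP-Sirpa neutrophils and 4.14% and 4.80% in T barcodes, and the binomial intervals of both classes overlapped in LNP-Sirpa replicate 1. With the wider C1q limit the difference was 2.01 (adjusted p = 0.0944). Among all barcodes Inhba was the only one of 4 tested cytokines and growth factors, of 21 measured, to pass. For comparison, 8 of 3224 genes tested passed.

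Arginase and other suppressive genes depended on which barcodes were kept. Arg1, the enzyme that depletes arginine, had 3210.0 and 73.0 CPM in control neutrophils against 3021 and 3147 CPM after LNP-Sirpa (0.90 ± 0.99, adjusted p = 0.813). In control replicate 1, 208 of its 251 UMIs lay in 1 barcode. In marker-rich barcodes the difference was 4.87 (adjusted p = 2.10e-05), with the wider C1q limit 3.82 (adjusted p = 3.62e-04), and without control replicate 1 it was 6.17 (adjusted p = 7.05e-08). Without barcodes with over 2 monocyte UMIs it was 2.16 (adjusted p = 0.0988). Macrophages had 1282 CPM of Arg1 or less in the controls and 2333 and 5751 CPM after LNP-Sirpa, and its thinned share in T barcodes was 7.87%, 9.07%, 24.4% and 45.8% against 18.2%, 14.3%, 44.2% and 57.9% in neutrophils. Wfdc17, a small secreted protein of the whey acidic family, had 575, 365, 5884 and 2796 CPM (3.36 ± 0.99, adjusted p = 0.142) and passed in marker-rich barcodes (2.71, adjusted p = 0.00385). It did not pass with the wider C1q limit (1.29, adjusted p = 0.162) or without barcodes with over 2 monocyte UMIs (0.89, adjusted p = 0.504). Of 16 measured genes of this list 8 were tested and none passed in the full set.

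Of 22 measured genes known from tumour neutrophils, 21 were tested and none passed among all barcodes, with a median of 0.37. None of the 21 passed in marker-rich barcodes. With the wider C1q limit, chosen after the data were seen, 3 of 21 rose, against 45 of 3293 over all genes tested there. They were Lgals3 (1.74, adjusted p = 0.0272), Spp1 (2.14, adjusted p = 0.0304) and Nos2 (4.11, adjusted p = 0.0321), the last 2 named after their values were seen. Spp1 encodes osteopontin and Nos2 the inducible nitric oxide synthase. Cd274, which encodes PD-L1, had 63.9, 584, 594 and 715 CPM (1.84 ± 0.87, adjusted p = 0.438), with control replicate 2 close to LNP-Sirpa replicate 1. Lgals3, galectin-3, had 4348, 2702, 2507 and 3115 CPM in the full set (-0.14 ± 0.87, adjusted p = 0.986), and 1.20 (adjusted p = 0.288) without barcodes with over 2 monocyte UMIs. Tnfrsf23, a decoy receptor for TRAIL named after its values were seen, as were Cd274 and Vegfa, had 25.6, 438, 143 and 248 CPM, and the growth factor gene Vegfa had 51.2, 73.0, 73.7 and 80.9 CPM. Il1b, the central inflammatory cytokine of these cells, had 4016, 7304, 5876 and 4878 CPM (0.26 ± 0.87, adjusted p = 0.966), and its decoy receptor Il1r2 had 882, 2410.2, 799 and 901 CPM. In both genes the groups overlapped, and Il1b was seen in 86.9% to 100% of neutrophil barcodes after thinning.

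Mertk, a receptor for apoptotic cells typical of macrophages, was the gene that fell. Control neutrophils had 549.9 and 73.0 CPM, against 41.0 and 27.0 CPM after LNP-Sirpa (-3.40 ± 0.66, adjusted p = 0.0149). Of its 43 UMIs in control replicate 1, 29 lay in 1 barcode, and without that library the difference was -0.29 (adjusted p = 0.927). In marker-rich barcodes the Mertk difference was -3.86 (adjusted p = 1.26e-06). It did not pass with the wider C1q limit (-3.65, adjusted p = 0.112). Macrophages held 154.5, 168.5, 147 and 74.0 CPM of Mertk. Mrc1 and Pmepa1, named after their values were seen, showed the same order, with 179 and 949 CPM against 98.3 and 80.9 CPM for Mrc1, and with 563 and 511 CPM against 88.1 and 119 CPM for Pmepa1. Both passed in marker-rich barcodes (-2.24, adjusted p = 0.0335 and -2.94, adjusted p = 1.38e-04). Mrc1 encodes the mannose receptor of macrophages, at 276 to 624 CPM in macrophage barcodes, and the part of macrophage RNA in these falls was not tested.

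The remaining lists gave no call among all 254 barcodes. These were surface and adhesion (16 tested, median 0.93), MHC class II and costimulation (9, 0.90), IL-1 family and inflammasome (11, 0.23), NF-kB and TNF response (21, 0.34), cytokine receptors and signalling (19, 0.46) and pattern recognition and Fc receptors (19, 0.20). The same held for NADPH oxidase and oxidant defence (15, 0.02), glycolysis and hypoxia (25, 0.08), survival and cell death (15, 0.25), neutrophil transcription factors (19, 0.33) and cell cycle (3, -1.23). Prdx5, a peroxidase, had 1829, 1096, 2597 and 2837 CPM and passed with the wider C1q limit (1.35, adjusted p = 0.0459) but not in the full set (1.06 ± 0.88, adjusted p = 0.721) or without barcodes with over 2 monocyte UMIs (0.48, adjusted p = 0.766). Gapdh, an enzyme of glycolysis, had 5154, 1169, 2746 and 3562 CPM, so the 2 controls lay on either side of the LNP-Sirpa libraries. The immediate-early gene Nfkbia, an inhibitor of NF-kB, had 1317, 5551, 2591 and 3643 CPM with the same arrangement, as did Ier3 and Mcl1.

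**Figure D5:**
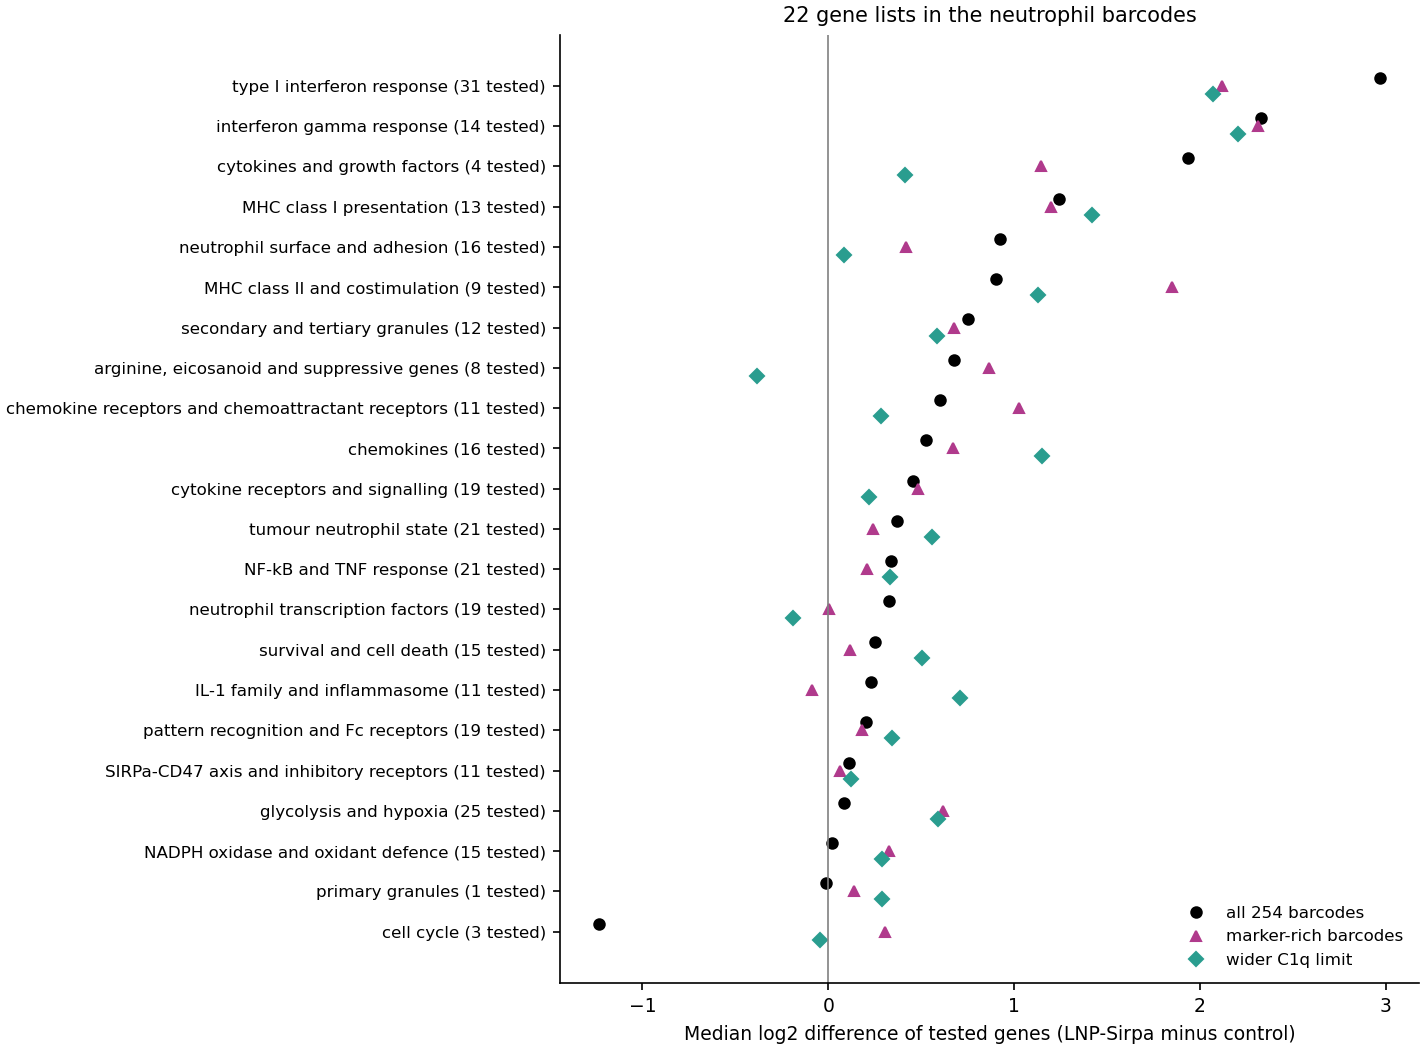
Median log2 difference, LNP-Sirpa minus control, over the tested genes of each of 22 lists, for all 254 barcodes, for marker-rich barcodes and for the wider C1q limit; the number tested refers to all 254 barcodes. The interferon lists have medians of 2.97 and 2.33, and several other lists change place or sign between the 3 sets of barcodes.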

How the data were processed

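The sources were matrices of whole-number UMI counts per gene and barcode, deposited by the authors for 4 cDNA libraries. Libraries were made with the DNBelab C Series droplet kit from polyA RNA, per the labels' protocols. STAR 2.5.1b and build GRCm39 are named in the submitters' processing notes and PISA 1.0 in the file headers; strand use is not given in the sources used here. The oligo libraries were not analysed here. The 4 libraries held 68654004, 90789729, 85810250 and 70581678 UMIs.

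Counts of the neutrophil barcodes were summed per library and tested with edgeR 4.0.16 (TMM, filterByExpr, robust quasi-likelihood fit, Benjamini-Hochberg, threshold 0.05). The 5 marker genes, C1q and Cd3 genes, 11 in all, stayed in the library sizes and out of the test. The interaction used the same sums with those of macrophage barcodes, with library as a block. DESeq2 1.42.0 was an alternative. The tests were checked on simulated counts with 200 changed genes and a fixed dispersion for all genes. SE is the log2 difference divided by the square root of F. Levels compare a gene between samples, not genes with each other. In bulk sums, fewer cells and less RNA per cell cannot be told apart.

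Doublets were not removed: Scrublet's automatic threshold (scanpy 1.11.5) marked 0 neutrophil barcodes and did not work here, and leaving out barcodes in the highest 5% of scores, with cell filters, was an alternative. The members and lists were chosen with earlier results of these data known. Named were Sirpa, Cd47, the genes of the rule, up to 10 rises and 10 falls past the threshold with at least 50 CPM, up to 4 called members per list or, with none, the 2 most abundant, the markers outside the rule and the 10 most abundant genes. Promoters came from RefSeq (GRCm38.p6).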

Additional observations from a re-analysis of the deposited data

How the results depend on the processing

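The share of neutrophil barcodes was higher under LNP-Sirpa in all alternatives run, by 1.11 percentage points in the main analysis. The difference was 1.03 points with at least 20 marker UMIs, 0.657 with Csf3r and Cxcr2 or Retnlg required, 0.256 with C1q below 5 per 10000, 0.375 without barcodes with over 2 monocyte UMIs and 1.52 with the wider C1q limit, which was chosen after seeing the data. The number of genes past the threshold, 8, was 3 with DESeq2, 21 without a filter on low counts, 21 with at least 20 marker UMIs, 25 in marker-rich barcodes, 16 with Csf3r and Cxcr2 or Retnlg, 15 without monocyte UMIs, 69 with the wider C1q limit, and 0 both with cell filters and the highest Scrublet scores left out and with sums thinned to the smallest. Leaving out 1 library gave 0 to 291 genes. With the replicate block it was 0 genes, and with the numbers crossed 1 gene; the labels do not tie equal numbers together, and the differences between replicates correlated at -0.11 over 3224 genes. The interaction, with 0 genes, gave 2 without a filter, 3 with at least 20 marker UMIs, 23 in marker-rich barcodes, 88 with Csf3r and Cxcr2 or Retnlg, and 0 to 133 without 1 library. Among the named genes, 116 values crossed the threshold upwards, 76 lost it and 0 changed sign while called. The cause of these changes was not tested. The 18 control barcodes limit every comparison.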
